A study of Mus musculus with 18 samples.

Results

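The genes that distinguish slow from fast muscle fibres were followed in the quadriceps (QU) muscle of mice on a control (CON) or high-salt diet (HSD). They were 10 of the 21899 genes listed, taken by symbol. *Myh7*, *Tnnt1*, *Tnni1*, *Myl2*, *Atp2a2*, *Casq2* and *Myom3* belong to slow or oxidative fibres, and *Myh2*, *Myh1* and *Myh4* encode the fast myosin heavy chains. The former are called the slow genes below for short, though not each is limited to slow fibres. The question was whether the lower *Myom3* and *Casq2* of HSD muscle went with lower expression of the other slow-fibre genes. All 10 were found, and all 10 passed the filter on low values in muscle (a mean of at least 0.5 FPKM, the fragments of a gene scaled by its length and by the total of the library). The genes were selected on the fold changes between the diets in muscle, which were already known, so their own values in it are given as a description, without a test.

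The mice were wild-type C57BL/6 animals, 18 weeks old at sampling. CON mice received chow and tap water, and HSD mice received a high-salt diet with saline as drinking water for 12 weeks. RNA of QU muscle, liver and epididymal white adipose tissue (eWAT) was sequenced in 18 libraries, 3 per diet and tissue. The labels call the tissue muscle, and QU comes from the methods of the study. The CON muscle libraries are CON16M, CON71M and CON72M, and the HSD muscle libraries are HS2M, HS3M and HS5M.

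A muscle fibre contracts at a speed set largely by the myosin heavy chain that it makes. Slow type I fibres make *Myh7*, and the fast fibres make *Myh2* (type IIa), *Myh1* (type IIx) or *Myh4* (type IIb), in the order from more oxidative to more glycolytic. Slow fibres also have their own troponins, myosin light chains, calcium pump and calsequestrin. The mouse quadriceps is a mainly fast muscle in which type IIb fibres prevail.

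The muscle libraries held 11185300 to 13311120 recovered fragments, and the libraries of the other tissues 7628068 to 16637457. Of the 8 skeletal muscle markers, all 8 reached a mean of 1 FPKM in muscle, with a summed level of 44528 to 49562 FPKM in CON and 49997 to 55118 in HSD, so the groups did not overlap. The part of this difference in the values below was not tested. The heart muscle markers summed to 0.501 to 1.53 FPKM, and 10 of the 11 marker lists, without that of skeletal muscle, overlapped between the diets. Red cell markers summed to 965 FPKM in CON16M and to 124 to 224 in the other 5 muscle libraries. In the liver, the library CON16L stood apart: its skeletal muscle markers summed to 3916 FPKM, against 4.16 to 8.16 in the other 5 liver libraries. Liver values are therefore given with and without it.

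The windows from 250 bases before to 50 bases after the start of *Casq2*, *Myom3* and the 3 fast myosins are shown because they are the genes on which the comparison turns and because the myosins lie next to each other. The sequences are those of RefSeq on GRCm38.p6, read 5′ to 3′ on the strand of the gene. Capitals mark E-boxes (CANNTG, bound by MyoD family factors), the MEF2 motif and TATAAA on either strand.

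*Casq2* chr3:102086165-102086464 (forward strand): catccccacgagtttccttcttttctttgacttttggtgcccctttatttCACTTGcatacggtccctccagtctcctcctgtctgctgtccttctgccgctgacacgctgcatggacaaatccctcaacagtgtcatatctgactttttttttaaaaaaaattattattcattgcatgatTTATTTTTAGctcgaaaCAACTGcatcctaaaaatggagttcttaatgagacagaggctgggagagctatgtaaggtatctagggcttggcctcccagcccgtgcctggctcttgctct

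*Myom3* chr4:135759465-135759764 (forward strand): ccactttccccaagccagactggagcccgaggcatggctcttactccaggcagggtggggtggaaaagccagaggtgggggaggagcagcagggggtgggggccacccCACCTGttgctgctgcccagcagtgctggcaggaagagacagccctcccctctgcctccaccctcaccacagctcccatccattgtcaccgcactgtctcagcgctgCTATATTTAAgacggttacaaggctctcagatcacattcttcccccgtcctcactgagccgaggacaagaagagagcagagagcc

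*Myh2* chr11:67170777-67171076 (forward strand): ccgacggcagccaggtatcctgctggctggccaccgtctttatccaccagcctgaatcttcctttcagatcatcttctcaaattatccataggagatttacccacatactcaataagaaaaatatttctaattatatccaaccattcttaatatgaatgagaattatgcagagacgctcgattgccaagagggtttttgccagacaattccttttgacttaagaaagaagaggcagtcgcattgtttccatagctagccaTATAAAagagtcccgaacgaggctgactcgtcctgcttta

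*Myh1* chr11:67199852-67200151 (forward strand): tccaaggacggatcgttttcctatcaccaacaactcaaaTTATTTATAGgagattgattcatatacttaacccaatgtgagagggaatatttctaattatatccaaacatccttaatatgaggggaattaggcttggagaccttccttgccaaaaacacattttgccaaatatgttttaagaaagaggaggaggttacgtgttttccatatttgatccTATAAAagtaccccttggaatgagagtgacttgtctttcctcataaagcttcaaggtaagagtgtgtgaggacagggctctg

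*Myh4* chr11:67237562-67237861 (forward strand): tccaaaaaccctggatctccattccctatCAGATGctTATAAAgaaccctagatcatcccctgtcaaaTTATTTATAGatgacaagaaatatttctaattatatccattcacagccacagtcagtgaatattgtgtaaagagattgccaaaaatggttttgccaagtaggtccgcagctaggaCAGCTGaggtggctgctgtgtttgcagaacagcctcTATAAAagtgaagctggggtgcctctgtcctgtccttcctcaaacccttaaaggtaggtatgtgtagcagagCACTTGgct

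A MEF2 motif is in 3.19% of the 32851 windows of the table. It was found in the windows of *Casq2* (TTATTTTTAG, 69 bases before the start), *Myom3* (CTATATTTAA, 35 bases before) and, in the same letters TTATTTATAG, *Myh1* (211 bases before) and *Myh4* (182 bases before). That of *Myh1* and *Myh4* overlaps a match to TATAAA on the opposite strand. The *Myh2* window held no match to MEF2 or to the E-box. The windows of the other slow genes, 2 for *Myh7*, 1 for *Tnnt1*, 2 for *Tnni1* and 2 for *Myl2*, held no match to MEF2 either. *Atp2a2* had no window. Those of *Myl2* (chr5:122092474-122092773 and chr5:122092939-122093238) end before the start of the gene used for its FPKM (chr5:122100951). The sequence at that start was not searched, so nothing is read from the lack of a match for *Myl2*. An E-box is in 72.3% of all windows, TATAAA in 13.6%. The longest run of bases shared by the 3 fast myosin windows was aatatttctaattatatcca, 20 bases that begin 165, 130 and 163 bases before the start of *Myh1*, *Myh2* and *Myh4*. Of the 2 myosins that share the MEF2 letters, *Myh1* was lower in HSD muscle and *Myh4* was not. Whether any of these motifs bears on the levels was not tested.

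Of the 10 genes, 9 had a lower mean in HSD muscle. In 7 of the 10, every HSD library lay below every CON library, which held for 15.6% of the 10834 genes tested in muscle. The 3 genes with overlapping groups were *Tnnt1*, *Myl2* and *Myh4*, and *Myh4* was the gene with a higher mean in HSD. By limma on log2(FPKM + 0.5), 0.895% of all genes tested in muscle were called, with an adjusted p under 0.05. With a log2 fold change of at least 1 in size as well (differentially expressed genes, DEGs) it was 0.323%. The 10 genes were part of this fit, but their own calls in muscle are not reported here. Nothing is read from the counts of lower or non-overlapping genes among the 10, since the contrast chose them. Fewer fibres of a type and less RNA per fibre cannot be told apart in whole muscle.

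**Figure D1:**
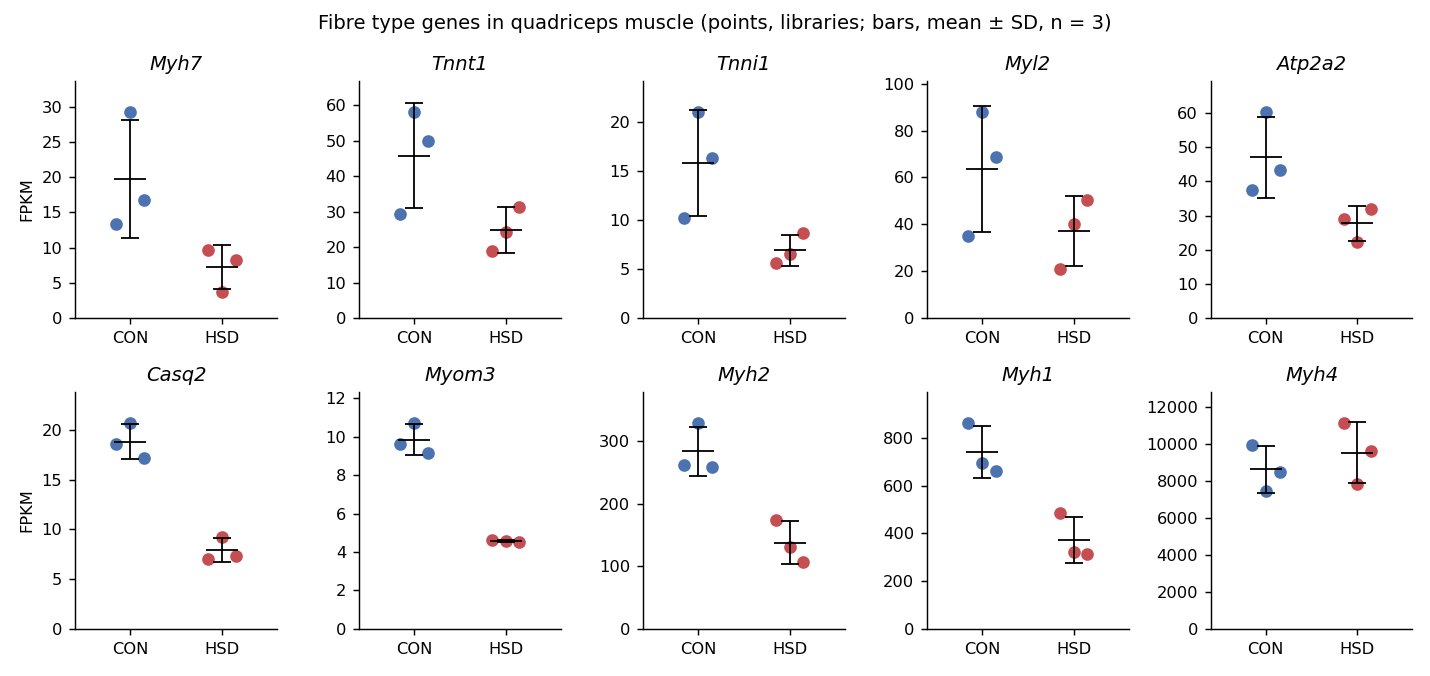
FPKM of the 10 genes in QU muscle, on linear axes that start at 0. Points are the 3 libraries of each diet and bars the mean ± SD. Every HSD library is below every CON library in 7 panels, and the groups overlap for *Tnnt1*, *Myl2* and *Myh4*.

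Among the myosin heavy chains, *Myh7* (mm10 chr14:54970684-54994626), the slow type I and cardiac beta chain, was at 13.3, 29.2 and 16.7 FPKM in CON and at 9.71, 3.78 and 8.29 in HSD. The highest HSD library, HS2M, was below the lowest CON library, CON16M, and the spread among libraries was more than 2-fold in either diet. The HSD mean was 36.8% of the CON mean, and the log2 fold change was -1.40 ± 0.34 (SE). Each value rests on 423 to 2983 fragments.

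*Myh2* (chr11:67171027-67197517), the type IIa chain of fast oxidative fibres, was at 262, 330 and 259 FPKM in CON and at 175, 132 and 108 in HSD (log2 fold change -1.06 ± 0.18). *Myh1* (chr11:67200052-67224575), the type IIx chain, was at 865, 697 and 664 FPKM in CON and at 484, 321 and 312 in HSD (-1.01 ± 0.19). Both were at about the same share of CON, 48.6% and 50.2%, with no overlap of libraries. *Myh4* (chr11:67238029-67260446), the type IIb chain, was at 9954, 7434 and 8507 FPKM in CON and at 11150, 7823 and 9630 in HSD (0.14 ± 0.18). Its libraries overlapped, and the HSD mean was 110.5% of CON.

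Set against each other, the 4 adult chains shifted in all HSD libraries towards *Myh4*. *Myh4* made up 87.6 to 90.1% of their summed FPKM in CON and 94.3 to 95.7% in HSD. *Myh1* was 7.68% ± 0.60 (SD, n = 3) in CON and 3.69% ± 0.52 in HSD, *Myh2* was 3.0% ± 0.79 and 1.38% ± 0.27, and *Myh7* 0.214% ± 0.117 and 0.0701% ± 0.0212. No HSD library reached into the CON range for any of the 4 chains. There was 10.7 to 12.8 times as much *Myh4* as *Myh1* in CON and 23.0 to 30.9 times as much in HSD. With fragments in place of FPKM, the share of *Myh4* was 86.4 to 89.2% and 93.8 to 95.4%. These shares hold the same values as the fold changes above and are no separate evidence.

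**Figure D2:**
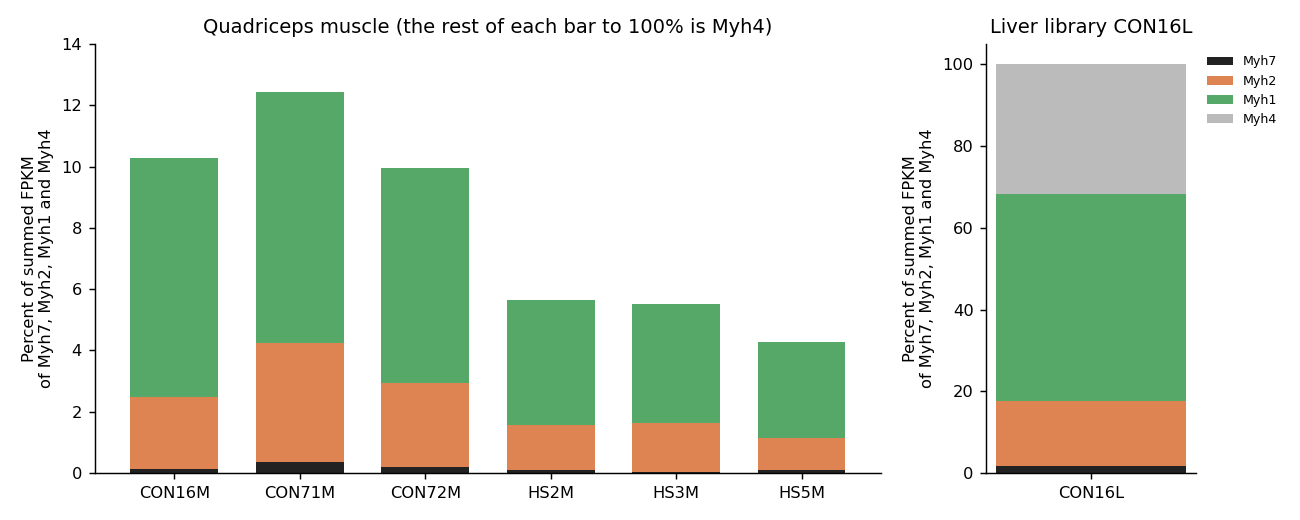
Share of *Myh7*, *Myh2* and *Myh1* in the summed FPKM of the 4 adult myosin heavy chains, by library. In QU muscle (left, axis to 14%) the 3 chains together take a larger part of each CON bar than of any HSD bar, and *Myh4* takes the rest. In the liver library CON16L (right, axis to 100%) *Myh1* is the largest part at 50.7% and *Myh4* takes 31.7%.

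The heavy chain genes resemble each other. Of all stretches of 100 bases in the transcript, 11.2% of *Myh7* are also in *Myh6*, and 9.46% of *Myh1*, 9.17% of *Myh2* and 3.85% of *Myh4* are in another of the chains, so reads from them could be assigned to more than 1 gene. *Myh6*, the cardiac alpha chain, was at 0.447 to 0.771 FPKM in muscle. Exons of *Myh7* share bases with antisense genes (*Mhrt*, 5.62% of its exon bases, and *Gm31251*, 6.07%), and 8.11% of those of *Myh1* are shared with *Myhas*. The strand setting of the counting is not given in the sources used here. The other 6 genes share no stretch of 100 bases with the genes compared.

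The thin filament of slow fibres carries the slow troponins. *Tnni1* (chr1:135779434-135810989), the inhibitory subunit, was at 10.2, 21.0 and 16.3 FPKM in CON and at 5.57, 6.52 and 8.67 in HSD, with no overlap and a log2 fold change of -1.10 ± 0.24. *Tnnt1* (chr7:4504570-4516382), the subunit that binds tropomyosin, was at 29.4, 58.2 and 50 FPKM in CON and at 18.8, 24.3 and 31.5 in HSD (-0.84 ± 0.26). Here HS5M was above CON16M. *Myl2* (chr5:122100951-122113472), the regulatory light chain of slow fibres and heart ventricle, was at 34.9, 87.9 and 68.6 FPKM in CON and at 20.9, 40.0 and 50.4 in HSD (-0.76 ± 0.37). Both HS3M and HS5M were above CON16M, the lowest CON library for each of the 3 genes.

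In calcium handling, *Atp2a2* (chr5:122453513-122502225) encodes SERCA2, the pump of slow fibres and, in another splice form, of most cells. It was at 37.4, 60.2 and 43.3 FPKM in CON and at 28.9, 22.1 and 31.9 in HSD, without overlap (-0.74 ± 0.19). *Casq2* (chr3:102086415-102146514), the calsequestrin of heart and slow fibres that buffers calcium in the sarcoplasmic reticulum, was at 18.5, 20.7 and 17.2 FPKM in CON and at 7.06, 9.26 and 7.34 in HSD (-1.21 ± 0.14). The lowest CON library was 17.2 and the highest HSD library 9.26 FPKM, and the HSD mean was 41.9% of CON.

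*Myom3* (chr4:135759715-135815564) encodes myomesin 3, a cross-linker of thick filaments in the M-band. It was at 9.61, 10.7 and 9.15 FPKM in CON and at 4.63, 4.58 and 4.5 in HSD (-1.02 ± 0.11). The HSD mean was 46.5% of CON, and its SD of 0.0652 FPKM (n = 3) was the smallest of the 10 genes relative to the mean. The fragments behind the values were 337 to 769 per library for *Myom3* and 249 to 672 for *Casq2*.

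In CON muscle the order of the levels per length was *Myh4*, *Myh1*, *Myh2*, *Myl2*, *Atp2a2*, *Tnnt1*, *Myh7*, *Casq2*, *Tnni1* and *Myom3*. The libraries of *Myh4*, *Myh1*, *Myh2* and *Tnnt1* did not overlap those of the next gene in the order. For *Tnnt1* the gap was small, from 29.4 FPKM in its lowest library to 29.2 in the highest of *Myh7*. *Myl2*, *Atp2a2* and *Tnnt1* (means of 63.8, 47.0 and 45.9 FPKM) overlapped among each other. Within *Myh7*, *Casq2*, *Tnni1* and *Myom3* (19.7, 18.8, 15.8 and 9.83 FPKM), each gene overlapped with the next. Each of the 7 slow genes was expressed below the 3 fast myosins.

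Other slow-fibre genes, which were no part of the 10, were tested to see whether they went the same way. This list and those below were drawn up with earlier results of these data known, so they are no independent check. Of the 11 listed, 10 passed the filter, and all 10 had a lower mean in HSD, as did 60.8% of all genes. Their median log2 fold change was -0.61 against -0.06 over all genes tested. *Sln*, which encodes the SERCA inhibitor sarcolipin, fell by limma (4.35, 4.04 and 3.66 FPKM in CON and 2.05, 1.99 and 2.63 in HSD, log2 fold change -0.74 ± 0.14, adjusted p = 0.045). It was the 1 gene of the list with an adjusted p under 0.05, against 0.665% of all genes in that direction. Over all genes, 72 of 97 calls (74.2%) were lower in HSD, a share of 55.6% with median-ratio scaling, 64.4% with quantile normalization and 87.0% without mitochondrially encoded genes. The call was lost whenever 1 of the 6 libraries was left out, and its adjusted p ran from 0.035 to 1 over the 18 alternatives.

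*Myl3*, the slow essential light chain, was at 64.0, 130 and 99.6 FPKM in CON and at 40.3, 42.9 and 57.1 in HSD (-1.02 ± 0.24, limma adjusted p = 0.089). *Tnnc1*, the slow and cardiac troponin C, was at 40.3, 113 and 81.0 FPKM in CON and at 26.8, 40.8 and 45.7 in HSD (-0.95 ± 0.33, adjusted p = 0.205). Neither passed the test, and CON16M was again the lowest CON library of both. In 5 of the 10, *Myl3*, *Myh7b*, *Myl6b*, *Sln* and *Mybpc1*, every HSD library was below every CON library, as in 15.6% of all genes. With the replicate number as a block, limma called 5 of the 10 (*Sln*, *Myl3*, *Tnnc1*, *Ankrd2* and *Mybpc1*), all lower in HSD, while it called 2.64% of all genes, 286 in place of 97. *Pln*, phospholamban, was below the filter at 0.0821 to 0.572 FPKM.

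The fast-fibre genes other than the myosin heavy chains were not lower as a group. Of 15 tested, 10 were higher and 5 lower in HSD, with a median log2 fold change of 0.21. Over all 10834 genes tested in muscle, 1761 had an unadjusted p under 0.05 by limma. Limma voom on the recovered fragments called 142 of them. These numbers are the background for such counts here and in the lists below. Of the 15 genes, none had an adjusted p under 0.05 by limma, 4 had an unadjusted p under 0.05, and voom called 1. That gene was *Mylk2*, the kinase of the fast regulatory light chain, at 397, 372 and 367 FPKM in CON and 663, 513 and 604 in HSD. Its log2 fold change was 0.64 ± 0.13 with an adjusted p of 0.066 by limma on FPKM and 0.019 with the replicate block. *Myoz3*, a Z-disc protein of fast fibres, was at 77.1 to 93.2 FPKM in CON and 52.9 to 75.2 in HSD (-0.40 ± 0.15, adjusted p = 0.233). *Tnnc2*, fast troponin C, was listed at 0.866 to 2.55 FPKM, far under its partners *Tnnt3* (10197 to 14899 FPKM) and *Tnni2* (4205 to 6749 FPKM). Of its exon bases, 74% are shared with *Ube2c* on the opposite strand, so its value (-0.49 ± 0.21, adjusted p = 0.303) is uncertain.

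**Figure D3:**
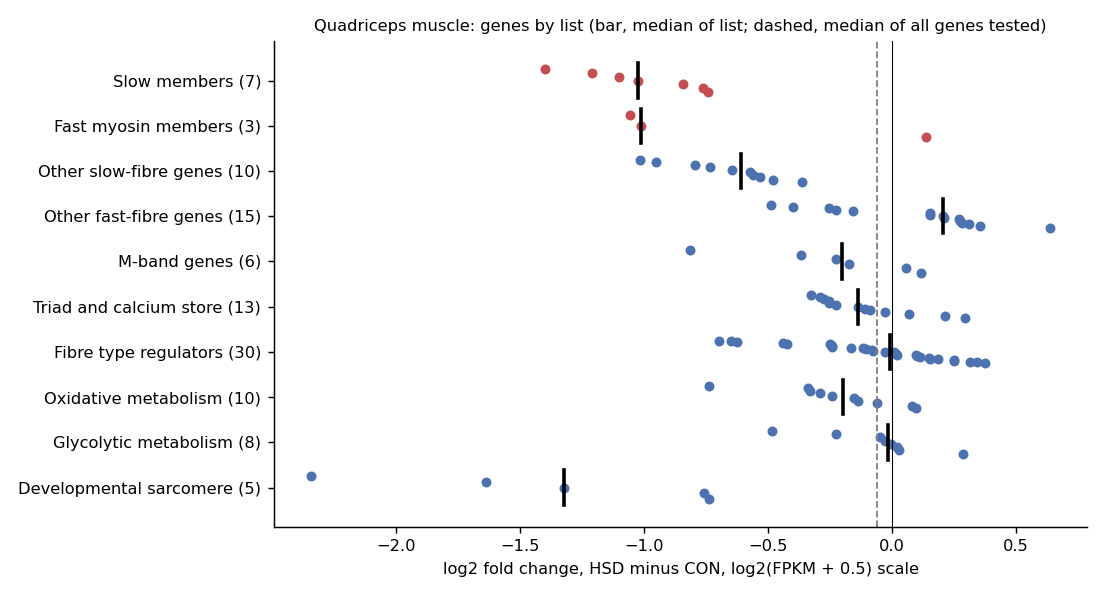
Log2 fold change (HSD minus CON) in QU muscle of the 7 slow and 3 fast genes (red, description) and of the genes of 8 other lists (blue), on the log2(FPKM + 0.5) scale. Each point is a gene, black bars are list medians and the dashed line is the median of all genes tested (-0.06). The 10 other slow-fibre genes all lie below 0, and the fast-fibre genes lie on both sides.

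The fast counterparts of the slow genes were looked up by role after the values were seen. *Tnnt3* (log2 fold change 0.31 ± 0.16), *Tnni2* (0.21 ± 0.19), *Mylpf* (0.21 ± 0.19) and *Myl1* (0.15 ± 0.18) were higher on average in HSD, and *Atp2a1* (-0.16 ± 0.21) and *Casq1* (-0.26 ± 0.13) lower, with adjusted p-values of 0.353 to 0.752 by limma. The slow form was a small part of each pair. *Tnnt1* was 0.420% ± 0.134 (SD, n = 3) of the FPKM of *Tnnt1* and *Tnnt3* in CON and 0.182% ± 0.025 in HSD, and *Tnni1* was 0.326% ± 0.107 of its pair in CON and 0.124% ± 0.024 in HSD. *Casq2* was 2.02% ± 0.31 of the calsequestrins in CON and 1.01% ± 0.08 in HSD. None of these 3 shares overlapped between the diets. *Myl2* to *Mylpf* (0.890% ± 0.383 and 0.434% ± 0.106) and *Atp2a2* to *Atp2a1* (0.989% ± 0.344 and 0.644% ± 0.168) overlapped. The shares hold the values of slow genes chosen in view of this contrast. They are no separate evidence, and nothing is read from their overlap.

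The partners of *Myom3* in the M-band did not pass the test. *Myom1*, the common myomesin, was at 177, 155 and 159 FPKM in CON and 209, 163 and 164 in HSD (0.12 ± 0.14, adjusted p = 0.715), and *Myom2*, which is found in fast fibres, had a log2 fold change of -0.23 ± 0.16 (adjusted p = 0.503). *Myom3* was 5.69% ± 0.71 (SD, n = 3) of *Myom3* plus *Myom1* in CON and 2.53% ± 0.31 in HSD, without overlap. This share holds the *Myom3* values for which the gene was chosen and is no separate evidence. *Obsl1*, which encodes a protein that binds myomesin, was at 10.2, 7.22 and 8.73 FPKM in CON and at 5.95, 3.37 and 5.16 in HSD. All its HSD libraries were below CON (-0.81 ± 0.20, adjusted p = 0.095, and 0.016 with the replicate block). Of the 6 genes of this list, limma called 0, with 1 at an unadjusted p under 0.05, and voom called 0.

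The partners of *Casq2* at the triad, where the calcium store meets the surface tubule, did not pass the test either. Limma called 0 of 13, 2 had an unadjusted p under 0.05, voom called 0 and the median log2 fold change was -0.14. *Casq1*, the fast calsequestrin, was at 922, 860 and 970 FPKM in CON and 712, 833 and 762 in HSD, so its libraries did not overlap. The changes of largest size were those of *Cacnb1*, a subunit of the voltage sensor (-0.33 ± 0.13, adjusted p = 0.252), *Trdn*, triadin (0.29 ± 0.16, adjusted p = 0.386), and *Ryr1*, the release channel (-0.29 ± 0.30, adjusted p = 0.676).

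Regulators of fibre type were measured as well. Of 31 listed, 30 passed the filter, of which 15 were lower and 15 higher in HSD, with a median log2 fold change of -0.01. Limma called 0, 7 had an unadjusted p under 0.05 (1761 of all 10834 genes tested) and voom called 0. *Esrrg*, a nuclear receptor of oxidative fibres, was at 3.5, 4.31 and 2.85 FPKM in CON and 2.41, 2.0 and 1.8 in HSD (-0.65 ± 0.16, adjusted p = 0.096). The groups did not overlap, and limma with arrayWeights gave an adjusted p of 0.046. *Myog*, the differentiation factor myogenin, was at 4.24, 3.28 and 8.13 FPKM in CON and 3.32, 3.3 and 2.0 in HSD (-0.70 ± 0.29, adjusted p = 0.270). *Ppargc1b*, a coactivator of mitochondrial genes, had a log2 fold change of -0.62 ± 0.22 (adjusted p = 0.204).

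Among 10 genes of oxidative metabolism, 8 were lower in HSD, and limma called 0 (2 with an unadjusted p under 0.05, 1 called by voom). *Mb*, which encodes myoglobin, was at 809, 1113 and 920 FPKM in CON and 532, 663 and 505 in HSD. All its HSD libraries lay below CON, with a log2 fold change of -0.74 ± 0.16 and an adjusted p of 0.076 by limma on FPKM, 0.042 by voom and 0.011 with the replicate block. *Idh2* (-0.34 ± 0.15, adjusted p = 0.303) and *Cpt1b* (-0.33 ± 0.19, adjusted p = 0.432) overlapped between the diets. Among 8 glycolytic genes, the median log2 fold change was -0.02, and limma called 0, with 1 at an unadjusted p under 0.05 and 0 called by voom. That 1 gene was *Gpd1*, a glycerol phosphate dehydrogenase, at 135 to 162 FPKM in CON and 91.2 to 124 in HSD (-0.48 ± 0.14, adjusted p = 0.145, and 0.041 with the block). *Aldoa* (0.29 ± 0.16, adjusted p = 0.397) and *Pgam2* (-0.23 ± 0.15, adjusted p = 0.492) had the next changes in size.

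Genes of the developing sarcomere split the CON libraries. *Myh3*, the embryonic myosin heavy chain, was at 7.55, 0.669 and 8.5 FPKM in CON and at 0.397, 0.280 and 0.426 in HSD. CON16M and CON72M were high, and CON71M was near HSD. *Myh8*, the perinatal chain, gave 4.0, 0.222 and 2.6 FPKM in CON and 0.128, 0.164 and 0.301 in HSD, and *Myl4*, the embryonic light chain, 7.13, 1.13 and 4.26 in CON and 0.891, 0.996 and 1.32 in HSD. CON71M was also the CON library with the most *Myh7*, *Tnnt1*, *Tnni1* and *Myl2*. None of the 5 genes passed the limma test (*Myh3* -2.34 ± 0.63, adjusted p = 0.116, *Myh8* -1.64 ± 0.54, adjusted p = 0.183, *Myl4* -1.32 ± 0.45, adjusted p = 0.192), all 5 had an unadjusted p under 0.05, and voom called 0. Without CON71M, these 3 genes were called (*Myh3* log2 fold change -3.30), and with any other library left out they were not. CON71M is the CON library near HSD, so leaving it out sets the groups apart, and nothing is read from these calls. With the replicate block, limma called *Myh3* (adjusted p = 0.040) and *Actc1*, the cardiac actin (0.020).

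The libraries of a diet did not vary alike in all 7 slow genes. Deviations of each library from the mean of its diet, on the log2 scale, were correlated between genes over the 6 libraries, as a description. *Tnnt1* and *Tnni1* varied together (r = 0.985), as did *Tnnt1* and *Myl2* (0.98), and *Myh7* went with *Atp2a2* (0.936) but less with *Tnnt1* (0.380). *Casq2* had r from -0.36 to 0.37 with *Myh7*, *Tnnt1*, *Tnni1*, *Myl2* and *Atp2a2*, and 0.54 with *Myom3*. *Myom3* had r of 0.24, 0.38 and 0.23 with *Tnnt1*, *Tnni1* and *Myl2*, and 0.54 and 0.603 with *Myh7* and *Atp2a2*. With the fast chains *Myom3* had r of 0.605 (*Myh2*, its highest among the members), 0.096 (*Myh1*) and -0.37 (*Myh4*). *Myl2* went against *Myh1* (-0.91). Without removing the diet means, *Casq2* and *Myom3* had r = 0.982, and *Myom3* and *Myh2* had r = 0.940. All these values share the 6 libraries and their scaling. Those with the diet means kept also hold the fall in view of which the genes were chosen.

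**Figure D4:**
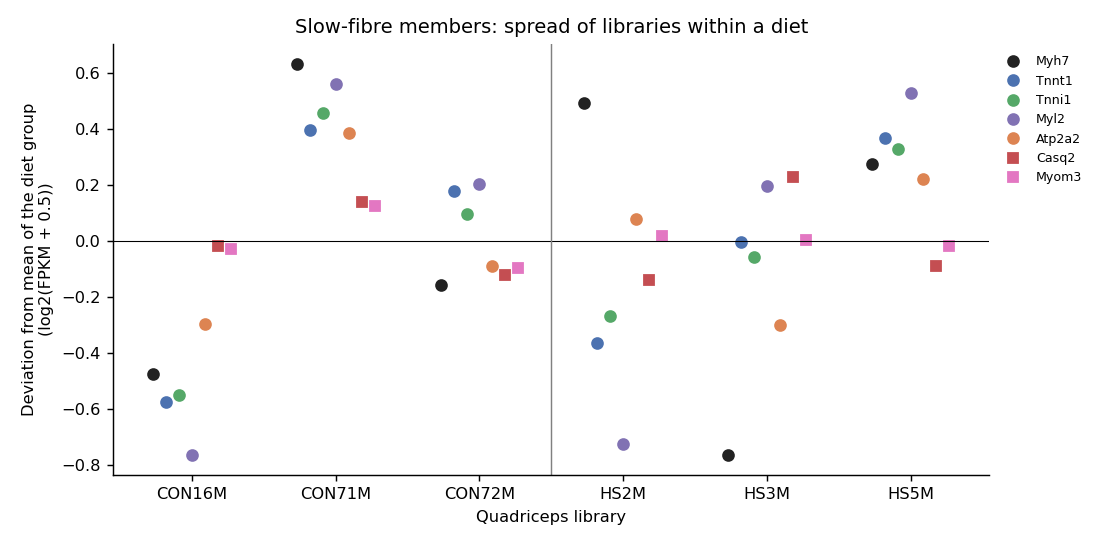
Deviation of each QU muscle library from the mean of its diet group for the 7 slow genes, in log2(FPKM + 0.5). Circles are *Myh7*, *Tnnt1*, *Tnni1*, *Myl2* and *Atp2a2*, and squares are *Casq2* and *Myom3*. In CON16M the 5 circles lie from -0.76 to -0.30, while *Casq2* and *Myom3* lie at -0.02 and -0.03.

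The clearest case was CON16M. There *Myl2*, *Tnnt1*, *Tnni1* and *Myh7* lay 0.76, 0.57, 0.55 and 0.47 below the CON mean on the log2 scale, while *Casq2* and *Myom3* lay 0.02 and 0.03 below it. In HS2M the deviation of *Myl2* was -0.72, and those of *Casq2* and *Myom3* were -0.14 and 0.02. The mean log2 level of the 10 other slow-fibre genes was 4.64 ± 0.30 (SD, n = 3) in CON and 3.97 ± 0.22 in HSD, a difference of -0.66 with no overlap, and that of the 15 fast-fibre genes was 9.97 ± 0.08 and 10.06 ± 0.07, with overlap. Measured against this slow-fibre mean in the same library, *Casq2* was a further 0.54 lower in HSD (-0.37 ± 0.25 in CON, -0.91 ± 0.17 in HSD) without overlap. *Myh7* was a further 0.74 lower (-0.38 ± 0.29 and -1.11 ± 0.85), *Tnni1* 0.44 (-0.67 ± 0.21 and -1.10 ± 0.22) and *Myom3* 0.36 (-1.27 ± 0.24 and -1.63 ± 0.24), each with overlap. *Tnnt1*, *Myl2* and *Atp2a2* were 0.18, 0.10 and 0.08 lower, also with overlap. Of the fast chains, *Myh2* and *Myh1* were 0.39 and 0.35 lower and *Myh4* was 0.80 higher, each with overlap. A larger fall than that of *Casq2* was thus seen for *Myh7*, and a larger one than that of *Myom3* for *Myh7*, *Casq2*, *Tnni1* and *Myh2*. The members were chosen in view of their fall in this contrast. These differences are therefore a description, and nothing is read from their size or overlap.

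By likeness over the 6 muscle libraries (Pearson r of log2 levels, among all genes tested), the 4 genes nearest to *Myom3* were *Mmachc*, *Lman1*, *4931414P19Rik* and *Enpp3* (r = 0.997 to 0.998). The 5 nearest to *Casq2* were *Sin3b*, *Mpp3*, *Inip*, *Sparc* and *Ccdc25* (0.989 to 0.994), and the 5 nearest to *Myh7* were *Kctd21*, *Trappc12*, *Eaf1*, *C1qtnf2* and *1810055G02Rik* (0.991 to 0.998). None of these is among the genes listed here for fibre type. An r above 0.9 with *Myom3* was reached by 440 genes (4.06%), among them 6 of 19 other slow or fast members and slow-fibre genes. With *Casq2* it was reached by 318 genes (2.94%) and 5 of the 19, and with *Myh7* by 258 genes (2.38%) and 1 of the 19. Each r includes the difference between the diets, in view of which the members were chosen. Nothing is therefore read from the counts among the 19.

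In the liver, the 10 genes were near 0 in all libraries but CON16L, except for *Atp2a2*. In CON16L, *Myh1* was at 216, *Myh4* at 135, *Myh2* at 67.2 and *Myh7* at 7.65 FPKM. In the other 5 liver libraries *Myh1* was at most 0.0453, *Myh2* at most 0.0367, *Myh7* at most 0.0112 and *Myh4* 0.224 to 0.739 FPKM. *Tnnt1* was at 44.7 FPKM in CON16L and 0.0595 to 1.40 in the others, *Myl2* at 45.7 and up to 0.197, *Casq2* at 14.7 and up to 0.176, and *Myom3* at 5.91 and 0.0638 to 0.195.

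The mixture of fibre genes in CON16L was not that of QU muscle. *Tnnt1* in CON16L was 97.4% of its mean in CON muscle, *Casq2* 78.4%, *Myl2* 71.6%, *Myom3* 60.1%, *Tnni1* 39.3% and *Myh7* 38.7%. *Myh1* was 29.2% and *Myh2* 23.7%, and *Myh4* was 1.57%. The general muscle genes *Acta1* (skeletal actin) and *Ckm* (creatine kinase) stood at 10.1% and 5.43%, and *Pvalb*, parvalbumin of fast fibres, at 2.73%. There was 0.625 times as much *Myh4* as *Myh1* in CON16L, while CON16M, the muscle library with the same number, had 11.5 times as much. *Casq2* was 28.3% of the calsequestrins and *Myom3* 30.1% of *Myom3* plus *Myom1* in CON16L. *Myh3* was listed at 0 and *Myh8* at 3.21 FPKM. With 1 such library there is no replicate of these shares.

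**Figure D5:**
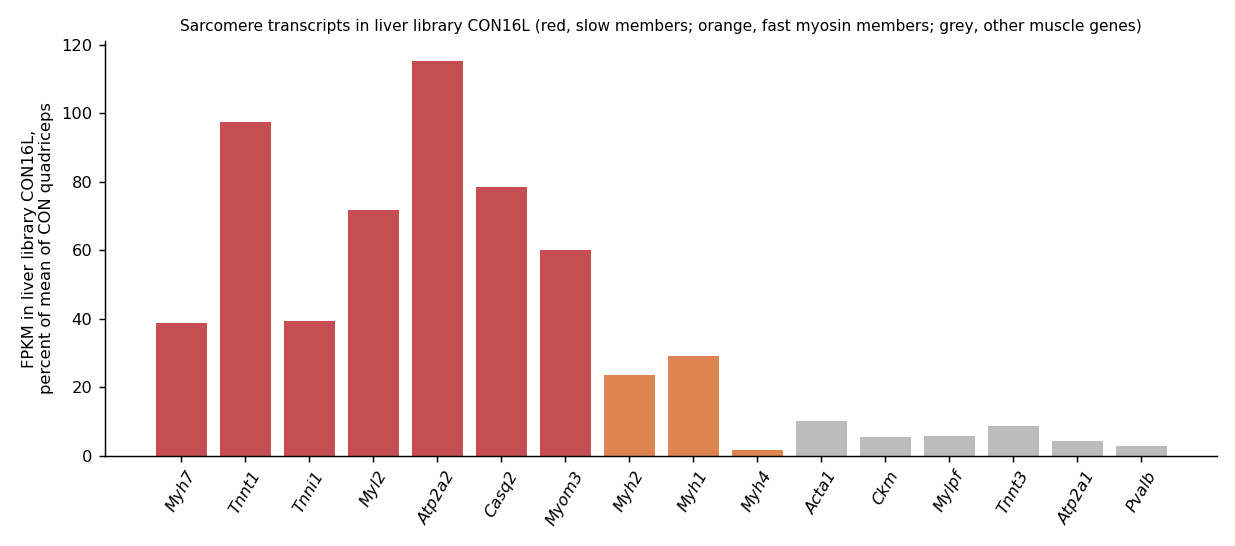
FPKM of muscle genes in the liver library CON16L as percent of the mean of the 3 CON QU muscle libraries, on a linear axis from 0. The slow genes (red) stand at 38.7 to 115%, *Myh2* and *Myh1* (orange) at 23.7 and 29.2%, and *Myh4* at 1.57%. *Atp2a2* is also expressed by the other liver libraries.

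None of the 10 genes differed between the diets in liver by limma. All 10 passed the filter there, 8 of them through CON16L, none had an unadjusted p under 0.05, the smallest adjusted p was 0.764, and voom called none. Over all 10317 genes tested in liver limma called 0%, with 592 genes at an unadjusted p under 0.05. Without CON16L, 2 of the genes were left. *Tnnt1* then had a log2 fold change of 0.77 (adjusted p = 0.506), against -1.16 ± 1.46 (adjusted p = 0.814) with it. *Atp2a2* was at 16.9 to 54.1 FPKM over the liver libraries, with a log2 fold change of 0.74 (adjusted p = 0.527) without CON16L and 0.28 ± 0.50 (adjusted p = 0.876) with it.

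In eWAT, 6 of the 10 genes passed the filter and limma called none of them, nor any of the 13740 genes tested (0%). Of the 6 genes, 3 had an unadjusted p under 0.05 (2298 of all genes), and voom called none of them. *Myom3* was at 1.12, 1.78 and 1.64 FPKM in CON and at 0.413, 0.242 and 0.937 in HSD, from 108 to 165 and 18 to 74 fragments. Every HSD library was below every CON library, as in muscle, and as for 12.4% of the genes tested in eWAT. The log2 fold change was -1.01 ± 0.32 with an adjusted p of 0.227. Adipocyte markers summed to 5055 to 5359 FPKM in CON and 1637 to 4788 in HSD eWAT, and the part of this in the value of *Myom3* was not tested.

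*Casq2* in eWAT was at 2.60, 2.68 and 1.98 FPKM in CON and 0.911, 4.93 and 1.93 in HSD (-0.13 ± 0.49, adjusted p = 0.891). Its highest library, HS3W, was also the highest in the smooth muscle markers, with 866 FPKM against 189 to 297 in the other 5, and the part of this was not tested. Without HS2W the log2 fold change turned to 0.32. In contrast to *Myom3*, *Myh4* was at 0.643, 0.0110 and 0 FPKM in CON and at 2.79, 0.649 and 1.77 in HSD (1.62 ± 0.53, adjusted p = 0.235). *Myl2* was at 0 in all CON libraries and at 0.789, 2.0 and 0.274 FPKM in HSD (adjusted p = 0.249), from 21, 48 and 7 fragments. Both passed the filter only through HSD libraries, so that a difference was built into their selection, and nothing is read from their being higher in every HSD library, as were 16.2% of the genes. The skeletal muscle markers summed to 25.5 to 34.1 FPKM in CON and 43.8 to 120.9 in HSD. The part of these markers in the 2 values was not tested.

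*Tnnt1* was at 0.136 to 1.88 FPKM in eWAT (0.41 ± 0.49, adjusted p = 0.645) and *Atp2a2* at 36.8 to 81.5 (0.41 ± 0.30, adjusted p = 0.50). The other 4 genes, *Myh7*, *Tnni1*, *Myh2* and *Myh1*, were at no more than 0.242 FPKM. Set against CON muscle, the highest eWAT library reached 18.1% for *Myom3* and 26.2% for *Casq2*, but 0.0327% for *Myh1*, 0.0323% for *Myh4* and 0.170% for *Acta1*. The *Myom3* and *Casq2* of eWAT therefore did not stand in the ratio to the myosins that they had in muscle.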

How the data were processed

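The FPKM of 18 libraries were used as deposited. To make these FPKM, the authors removed adapters with cutadapt, mapped the reads to mm10 by HISAT2 and scaled fragments per gene of an Ensembl annotation, of which the release is not given in the sources used here. The submitters' processing notes also name HTSeq 0.9.1. Whole fragments were recovered from FPKM with GENCODE M21 exon lengths, for 18343 of 18822 genes above 0 within 0.02 fragments, and for 416 more at another length. Each tissue was fitted by limma 3.58.1 (R 4.3.3) (diet as a factor, values as log2(FPKM + 0.5)) for genes with a mean of at least 0.5 FPKM, with a variance trend and Benjamini-Hochberg adjustment over all genes tested. Fold changes on this scale understate those of low genes. P-values are 2-sided. The fits were tested on simulated data. Members and lists were chosen with earlier results of these data known. The genes named from a list are those called, filled up to 3 by size of change, of which some are not reported here. Others named beside them, such as those with non-overlapping groups, were chosen after their values were seen.

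No animal was in both diets, and CON and HSD libraries share only a replicate number in their titles. Deviations from the diet means correlated at 0.383, 0.177 and 0.184 between same-numbered muscle libraries. Between muscle libraries of different number, r ran from -0.347 to 0.180 (CON72M with HS3M), so the values overlapped. Whether the number pairs the libraries is not settled. Values with it as a block are given as an alternative, where they change a call of a list gene.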

Additional observations from a re-analysis of the deposited data

How the results depend on the processing

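All 10 genes kept the sign of their muscle fold change under the 18 alternatives, with log2 fold changes of -1.10 to -0.94 for *Myom3*, -1.32 to -1.12 for *Casq2*, -1.64 to -1.02 for *Myh7*, -1.38 to -0.87 for *Tnni1*, -1.13 to -0.65 for *Tnnt1*, -1.15 to -0.40 for *Myl2*, -0.89 to -0.55 for *Atp2a2*, -1.24 to -0.89 for *Myh2*, -1.22 to -0.90 for *Myh1* and 0.02 to 0.27 for *Myh4*. The number of the 10 with every HSD library below every CON library was 7 to 9 with 1 library left out. Leaving a library out cannot lower this number, so nothing is read from it. A negative change was seen for 9 of 10 in each alternative.

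Calls depended more on the setting. In place of 97 genes called in muscle, there were 9 without a filter on low FPKM, 63 with median-ratio scaling, 59 with quantile normalization, 261 with arrayWeights and 5 with all 18 libraries in 1 fit. DEGs numbered 7 without a filter, 58 without mitochondrially encoded genes, 5 with all 18 libraries and 63 by voom, against 35. With 1 library left out, the calls ran from 10 (without CON72M) to 205 (without HS2M), with 13 without CON16M, 15 without HS3M, 26 without HS5M and 35 without CON71M, and DEGs from 10 to 61. Of the slow-fibre list, 1 gene was called, and 0 without a filter, with median-ratio scaling, quantile normalization, no variance trend, all 18 libraries or voom, 2 with arrayWeights, and 0 with any library left out. Over all 8 lists, 1 gene was called, with 0 in those alternatives except voom (2), arrayWeights (6) and 1 library left out (0 to 3). The causes were not tested. The muscle values of the 10 genes rest on 249 fragments or more in each library.

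With the replicate block, limma called 286 genes in muscle, with 54 DEGs, 5 genes of the slow-fibre list and 11 over all lists. Calls of *Mylk2*, *Obsl1*, *Mb*, *Gpd1*, *Myh3* and *Actc1* were gained, and the block lost no call of a list gene. In eWAT (r = -0.197, 0.061 and 0.414) and liver (-0.473, 0.395 and -0.213) same-numbered libraries did not vary together in every pair, and the block called 0 of the genes there.

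Outside muscle, arrayWeights called 1 of the 6 genes tested in eWAT (*Myh4*) and 1 of the 10 in liver (*Atp2a2*), where it called 1439 (10.5%) and 7123 (69%) of all genes. The direction turned for *Casq2* in eWAT without HSD replicate 1 (0.32, with a range of -0.65 to 0.32 over the libraries left out), for *Atp2a2* in liver with quantile normalization (-0.092), without mitochondrially encoded genes (-0.26) and without CON replicate 1 (-0.087, with a range of -0.087 to 0.74 over the libraries left out), for *Myl2* (0.12) and *Myom3* (0.0091) in liver with arrayWeights, and for *Tnnt1* in liver without CON16L (0.77, with a range of -2.39 to 0.77) and over the study's libraries (0.83). The causes were not tested.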
